A study of Mus musculus with 15 samples.

Results

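Chromatin accessibility around the genes of 7 mesenchymal transcription factors, Snai1, Snai2, Twist1, Twist2, Zeb1, Zeb2 and Prrx1, was followed in mouse embryonic fibroblasts (MEFs). A consensus peak was counted to one of these genes when the gene's interval was the nearest protein-coding gene interval in mm10, with the peak centre inside it or within 100 kb. This gave 197 of the 206367 consensus peaks, and all 197 passed the filter on low counts. Zeb1 had 48 peaks, Twist2 43, Prrx1 36, Zeb2 33, Snai1 21, Twist1 10 and Snai2 6. The assignment of consensus peaks to these genes used position only, and the nearest gene need not be the gene that a peak regulates. The choice was still not independent of the measured values. Each of the 197 peaks had a summit in the deposited peak list of some library, and the genes were chosen with earlier results of these data known.

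Accessibility was measured by Omni-ATAC-seq, a protocol that marks open chromatin by where a transposase can cut it. The MEFs, connective tissue cells grown from embryos, had a C57 background in all 15 libraries, and each of the 5 groups held 3 libraries. Early Fra2 cells carried a CRISPRa-VPR-mCherry construct, an activator led to its target by guide RNAs, with guides against Fosl2, which encodes Fra2, a subunit of the AP-1 dimer, and early control cells carried the same construct with scrambled guides. Late Fra2 and late control cells were the same pair, collected about a week later. Sorting on mCherry and on THY1, a surface protein of fibroblasts, was applied to all 4 of these groups. Sample labels give days 3 and 10 after infection, except day 4 for early control 3, and the series description gives days 4 and 11, so the times are called early and late. Ezh2 inhibitor cells had been kept in 4 µM GSK343 for 3 days and then without it for a day. GSK343 blocks Ezh2, the enzyme that methylates histone H3 in Polycomb repression. Their labels carry day 4 and do not say whether these cells were transduced or sorted, so the comparison with early control can hold such differences as well. Whether the libraries of a group are separate cultures is not stated, so p-values cover only how far libraries of a group lie apart, and that can be technical.

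Libraries held between 6.75 and 25.3 M reads in peaks. Early control 3 was the shallowest, and its correlation with early control 1 was the lowest between libraries of a group (r = 0.355 over the 20000 most variable peaks, against at least 0.757 within each of the other 4 groups). Peaks at the Fosl2 locus, the targeted gene, summed to 280, 278 and 285 CPM in early Fra2, against 263, 251 and 244 CPM in early control (log2 fold change 0.15 ± 0.04 SE, edgeR adjusted p = 0.00885). In late Fra2 they summed to 233, 239 and 249 CPM, against 240, 248 and 241 CPM in late control, which overlap. CPM of single peaks are TMM-scaled counts per 1 M reads in peaks. CPM summed over all peaks of a gene, as for Fosl2, are per 1 M reads in the peaks assigned to genes. They are scaled by TMM factors of the counts summed per gene, so they are not on the scale of single peaks. Accessibility does not measure the expression of Fosl2. Of 12 fibroblast marker genes 11 had a peak within 1 kb of a gene end, Lum having none, with a median of 16.3 CPM per gene. Epithelial markers had such a peak at 6 of 9 genes, with a median of 3.53 CPM, and Krt8, Krt18 and Cldn7 had none. Endothelial markers had one at 4 of 6 genes (median 5.24 CPM), macrophage markers at 3 of 6 (9.52 CPM), muscle markers at 3 of 5 (2.21 CPM) and neuronal markers at 4 of 5 (12.9 CPM). Summed over these peaks, fibroblast markers held between 202 and 218 CPM in late Fra2 and between 232 and 273 CPM in late control, and neuronal markers between 43.8 and 47.3 CPM in late Fra2 and between 56.0 and 64.8 CPM in late control. In the early pair the fibroblast sums overlapped, at 229 to 259 CPM in early Fra2 and 227 to 290 CPM in early control, and the neuronal sums did not, at 44.2 to 51.6 CPM in early Fra2 and 52.6 to 66.5 CPM in early control. Epithelial markers summed to between 21.8 and 25.2 CPM in Ezh2 inhibitor cells and between 28.4 and 31.1 CPM in early control, without overlap. The part of these marker shifts in the results at the 7 genes was not tested. In such bulk libraries fewer cells with an open site and less opening per cell cannot be told apart.

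Snail (Snai1, Snai2) and Zeb (Zeb1, Zeb2) proteins are zinc finger repressors that bind E-boxes and silence epithelial genes such as Cdh1 during epithelial to mesenchymal transitions. Twist1 and Twist2 are basic helix-loop-helix factors that pair with E proteins, and Prrx1 is a homeobox factor of limb and craniofacial mesenchyme. Fibroblasts express many of these factors as part of their resting program, and AP-1, the dimer that Fra2 joins, binds enhancers across fibroblast chromatin.

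Promoter windows of 250 bases ahead of a transcription start were taken from RefSeq (GRCm38.p6) for the 5 genes the table holds, which leaves out Snai2 and Zeb1. They were searched on both strands for the AP-1 motif TGANTCA and for CAGGTG or CACCTG, the E-box bound by Snail and Zeb proteins. The window ahead of 1 of the 4 listed Zeb2 starts (chr2:45110278-45110527, minus strand) held 2 AP-1 motifs, printed in capitals, whereas 7.81% of 32851 windows of the full table (250 bases before to 50 after the start) held at least 1. The Snai1 window (chr2:167537945-167538194, plus strand) held 1 CACCTG, in capitals, a motif pair present in 20.2% of all windows. Neither motif was found in the windows of Twist1, Twist2, Prrx1 and the other 3 Zeb2 starts. The Twist1 window (chr12:33957421-33957670, plus strand) is shown because the peaks on either side of it fell in early Fra2 cells. Each of the 8 windows of the 5 genes is overlapped by 1 consensus peak.
Zeb2: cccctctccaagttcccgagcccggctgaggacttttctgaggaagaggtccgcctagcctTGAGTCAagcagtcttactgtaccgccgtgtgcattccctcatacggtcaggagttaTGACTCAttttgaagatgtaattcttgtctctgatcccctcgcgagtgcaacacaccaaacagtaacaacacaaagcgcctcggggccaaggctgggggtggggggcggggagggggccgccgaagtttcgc
Snai1: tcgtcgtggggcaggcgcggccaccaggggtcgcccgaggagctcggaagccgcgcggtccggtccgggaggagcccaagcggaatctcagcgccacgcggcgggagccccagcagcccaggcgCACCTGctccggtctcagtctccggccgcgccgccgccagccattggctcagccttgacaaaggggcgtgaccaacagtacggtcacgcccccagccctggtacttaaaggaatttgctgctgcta
Twist1: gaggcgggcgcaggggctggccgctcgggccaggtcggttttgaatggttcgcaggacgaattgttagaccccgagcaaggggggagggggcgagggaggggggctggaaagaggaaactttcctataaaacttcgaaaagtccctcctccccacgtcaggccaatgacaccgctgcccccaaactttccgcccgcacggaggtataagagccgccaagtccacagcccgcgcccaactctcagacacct

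All 3 promoters had a peak in every group, and none was called in the edgeR fit. The peak over the Zeb2 window with the AP-1 motifs (chr2:45110154-45110655) averaged 9.03 ± 1.26 CPM in early Fra2 and 8.59 ± 2.36 CPM in early control, and 7.47 ± 1.96 CPM in late Fra2 and 9.80 ± 0.55 CPM in late control (SD, n = 3 each), with overlap at both times and no call. The Snai1 promoter peak (chr2:167537811-167538312), the strongest of that gene, averaged 20.8 ± 2.5 CPM in early Fra2 and 23.8 ± 5.5 CPM in early control (SD, n = 3 each), again with overlap. At the Twist1 start (chr12:33957401-33957902) early Fra2 read 11.2, 12.2 and 12.5 CPM, against 15.2, 14.4 and 14.7 CPM in early control, and late Fra2 read 11.1, 9.07 and 9.21 CPM, against 12.7, 13.3 and 13.6 CPM in late control. Fra2 cells lay below their controls in every library at both times, but neither difference passed the test in edgeR (log2 -0.31 ± 0.15 SE early and -0.42 ± 0.15 SE late, edgeR adjusted p = 0.149 and 0.0557). DESeq2 called the late one. The peak nearest a Twist2 start (chr1:91801454-91801955) averaged 10.8 ± 2.0 CPM in early Fra2 and 12.6 ± 2.1 CPM in early control (SD, n = 3 each). Of the 17 member peaks within 1 kb of a gene end, only the 2 that flank the Twist1 start were called by edgeR in any of the 4 group comparisons. The share called among all gene-end peaks was not counted, so this is no result about these promoters.

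Most peaks of these genes lie away from their ends: 86 were in gene bodies and 94 outside the gene intervals, and gene-end peaks made up 8.63% of them, against 13% of all tested peaks. Their typical level, a median of 3.16 CPM over the 15 libraries, was close to the 3.27 CPM of all peaks. The strongest was a Twist2 gene body peak (chr1:91816582-91817083) 15.4 kb past the start, with a mean of 28.7 CPM, and the next strongest named peaks were a Zeb1 peak 44.7 kb beyond the gene with 22.8 CPM and the Snai1 promoter with 21.6 CPM. None of these 3 was called in a comparison. The deposited peak lists, called per library, had a summit inside 44 of the 197 peaks in all 15 libraries, and the median peak had one in 12 libraries.

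In early Fra2 against early control, 16 member peaks rose and 9 fell, or 8.12% and 4.57% of the 197, where 10.1% and 4.92% of all 206349 tested peaks did (edgeR, adjusted p under 0.05 in all calls). In late Fra2 against late control 10 rose and 3 fell, or 5.08% and 1.52%, where 6.44% and 3.54% of all peaks did. Ezh2 inhibitor cells had 2 member peaks higher than early control (1.02%, with 0.552% of all peaks higher and 0.341% lower), and late control had 4 higher and 2 lower than early control (2.03% and 1.02%, with 2.04% and 1.23% of all peaks). Apart from the inhibitor, where 2 peaks make up the share, these shares lie near or under those of all peaks, so the counts alone are no result about the 7 genes. Their median log2 fold change was 0.01 in early Fra2 and -0.04 in late Fra2, beside -0.03 and -0.01 over all peaks. Groups did not overlap, with Fra2 higher, at 26 member peaks early and 27 late, where this held for 15.4% and 16.7% of all peaks. With Fra2 lower it held at 25 and 29 member peaks, and at 11.7% and 14.6% of all peaks. In all, 34 of the 197 peaks were called in at least 1 comparison, 46 calls, of which 12 held in every alternative fit with all libraries and after leaving out each library compared. Several of the called peaks described here lie outside the rule for naming peaks and were picked after their values were seen. When libraries were scaled to gene-end peaks, the median of all peaks moved to 0.18 in early Fra2, 0.23 in late Fra2 and 0.14 in Ezh2 inhibitor cells. The member calls then became 34 higher and 4 lower early, 32 and 1 late, 5 and 0 with the inhibitor, and 5 and 0 for late control. Of all peaks 19.2% were then higher and 1.37% lower early, 17.2% and 0.892% late, 3.84% and 0.255% with the inhibitor, and 3.71% and 0.966% for late control, so the balance of directions depends on the scaling for all peaks and members alike. Without early control 3, whose spread enters every fit, the calls were 18 higher and 10 lower early, 17 and 9 late, 4 and 3 with the inhibitor, and 2 and 1 for late control. The shares of all peaks were 11.8% and 7.74% early, 9.3% and 7.08% late, 1.42% and 2.24% with the inhibitor, and 2.28% and 1.65% for late control. The early count fell to 13 without early Fra2 1, and the late Fra2 count to 7 without late Fra2 1 and to 8 without late control 3. Without Ezh2 inhibitor 1, 2 or 3 the inhibitor count was 0, 1 and 1, and the late control count ran between 1 and 9 over all fits with 1 library less. Shares of all peaks were not counted when a library other than early control 3 was left out, so these counts are no result about the 7 genes.

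**Figure D1:**
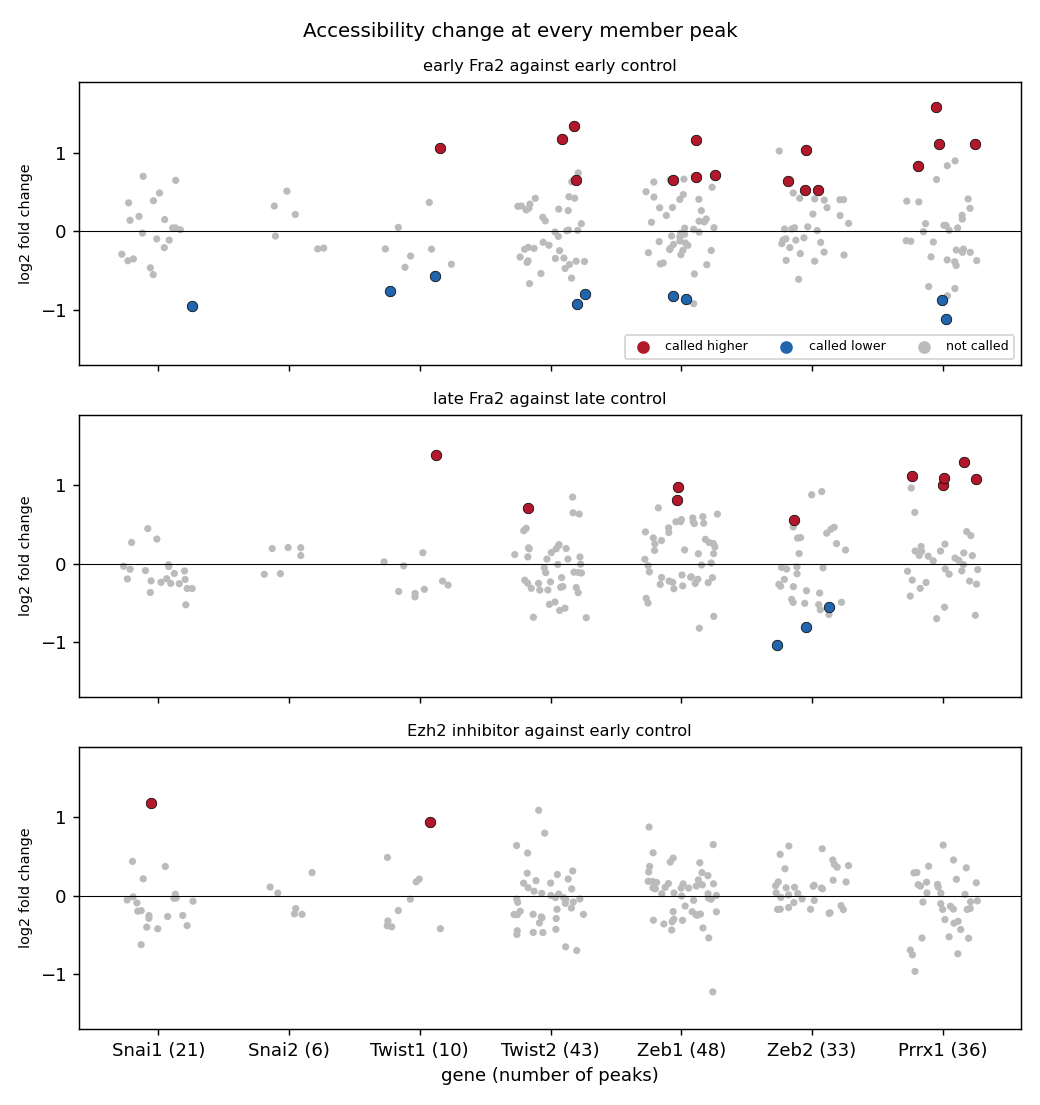
Log2 fold change of each of the 197 member peaks (1 point each) in early Fra2, late Fra2 and Ezh2 inhibitor cells against their controls, by gene. Coloured points were called, at 6 genes in early Fra2 and mostly at Prrx1 (5) and Zeb2 (4) in late Fra2, and 2 points were called with the inhibitor, 1 at Snai1 and 1 at Twist1.

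Twist1, a bHLH factor of cranial and limb mesenchyme, had 1 peak that was called higher in early Fra2, late Fra2 and Ezh2 inhibitor cells. It lies 12.1 kb ahead of the start (chr12:33945326-33945827). It read 6.03, 7.51 and 5.76 CPM in early Fra2, against 2.79, 4.28 and 1.54 CPM in early control (log2 1.07 ± 0.22 SE, edgeR adjusted p = 0.000273). Late Fra2 gave 8.90, 7.20 and 5.34 CPM, against 3.14, 2.53 and 2.68 CPM in late control (1.38 ± 0.20, edgeR adjusted p = 6.04e-06). Ezh2 inhibitor cells gave 6.02, 5.72 and 5.79 CPM (0.94 ± 0.21 against the same early controls, edgeR adjusted p = 0.017). Every library of these 3 groups stood above all of its controls, and late and early control overlapped. Both Fra2 calls held in every alternative fit. The inhibitor call was lost when only the compared groups were fitted (adjusted p = 0.125) and without early control 1 or any single inhibitor library (edgeR adjusted p between 0.0510 and 0.0737).

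Next to the Twist1 start the direction was the opposite in early cells. A peak 0.7 kb ahead of the start (chr12:33956769-33957270) read 6.36, 5.44 and 5.19 CPM in early Fra2, against 9.61, 7.40 and 8.12 CPM in early control (log2 -0.56 ± 0.17 SE, edgeR adjusted p = 0.017). One 0.6 kb past the start (chr12:33958065-33958566) read 4.89, 5.44 and 4.40 CPM, against 8.42, 9.14 and 6.86 CPM (-0.76 ± 0.17 SE, edgeR adjusted p = 0.00142). Every early Fra2 library lay below every early control at both. The second call held in every alternative fit, and the first was lost without early control 1, early Fra2 2 or early Fra2 3 (edgeR adjusted p between 0.0525 and 0.141), under gene-end scaling (0.124) and when only the compared groups were fitted (0.0740). In late cells the same peaks had log2 values of -0.22 ± 0.17 and -0.38 ± 0.17 SE and no call.

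**Figure D2:**
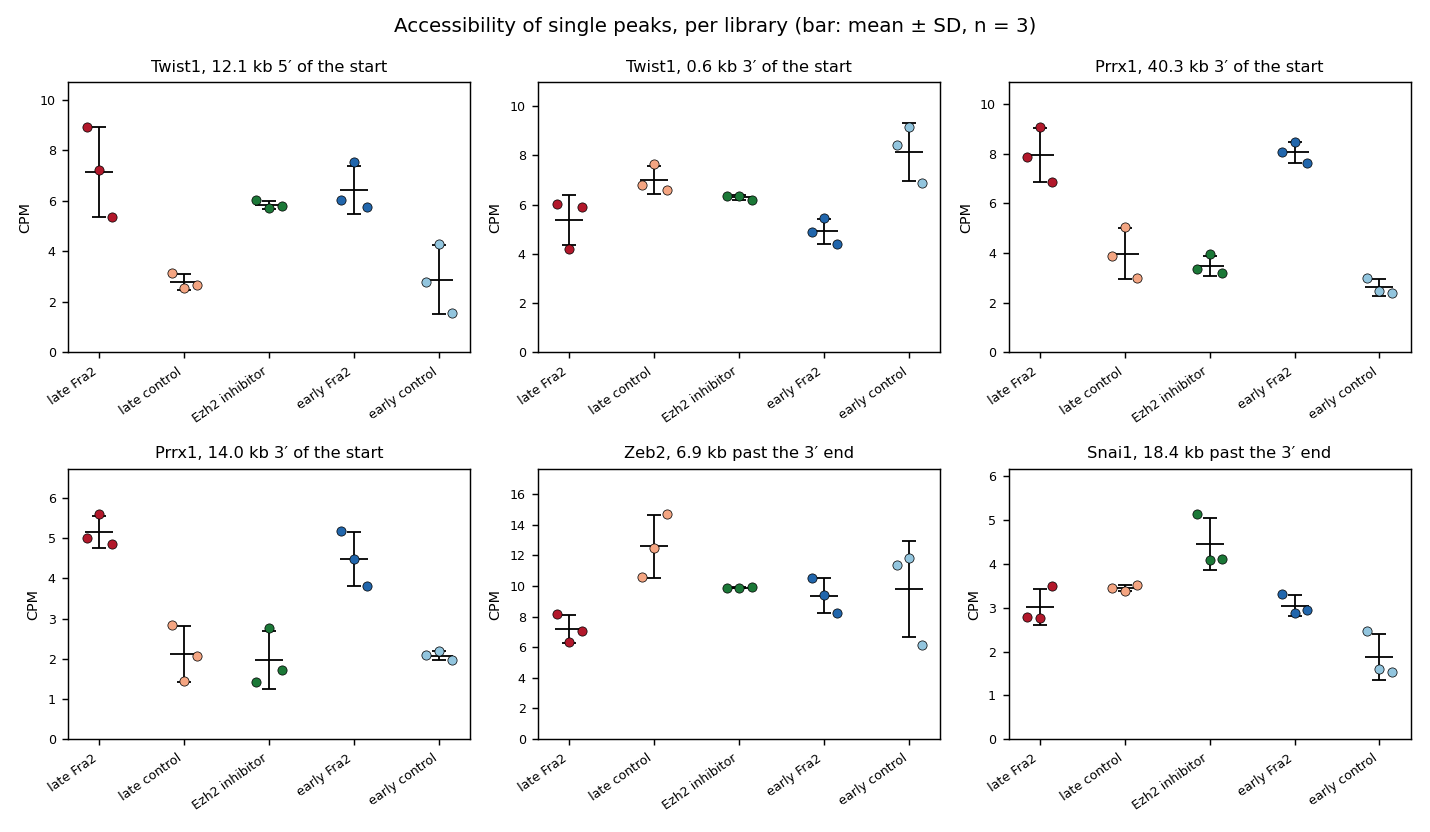
CPM of 6 member peaks in each of the 15 libraries (points), with the group mean ± SD (bars, n = 3). The Twist1 peak 12.1 kb ahead of the start lies above its controls in Fra2 and Ezh2 inhibitor cells, both Prrx1 peaks lie above their controls in Fra2 cells, and the late Fra2 mean is the lowest of the Zeb2 peak.

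Twist2, the paralog that marks dermal mesenchyme, was called at 5 peaks in early Fra2, each at least 10 kb from its start. Peaks 51.3 kb (chr1:91749910-91750411) and 61.7 kb ahead of it rose in early Fra2. The nearer one read 2.99, 3.44 and 3.10 CPM in early Fra2, against 0.805, 1.31 and 1.96 CPM in early control (log2 1.34 ± 0.34 SE, edgeR adjusted p = 0.00421), and the call was lost without early control 1 (adjusted p = 0.0589). The farther one averaged 2.10 ± 0.03 CPM, against 0.930 ± 0.340 CPM (1.18 ± 0.41 SE, edgeR adjusted p = 0.0394), and its call was lost without early control 1 or any of the early Fra2 libraries (edgeR adjusted p between 0.0666 and 0.184). That call held in 5 of the 6 alternative fits with all libraries. Levels here are low: 3 counts, the limit that a count of 0 allows, correspond to between 0.117 and 0.420 CPM per library, and cover counting error only.

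Past the Twist2 gene, 2 peaks fell in early Fra2. The peak 10.2 kb past the 3′ end (chr1:91857987-91858488) read 4.46, 5.76 and 4.40 CPM in early Fra2, against 9.71, 7.47 and 7.70 CPM in early control (log2 -0.80 ± 0.18 SE, edgeR adjusted p = 0.00135). The one 35.3 kb past the end (chr1:91883129-91883630) read 1.85, 1.76 and 2.23 CPM, against 3.76, 3.99 and 3.22 CPM (-0.93 ± 0.26 SE, edgeR adjusted p = 0.00948). Neither pair of groups overlapped, and both calls held when any library was left out, the second missing the threshold under gene-end scaling (adjusted p = 0.0506). In late cells their log2 values were -0.37 ± 0.16 and 0.09 ± 0.23 SE, without a call. A peak in the gene body 38.2 kb past the start (chr1:91839454-91839955) rose at both times, to 3.95 ± 0.12 CPM in early Fra2, against 2.59 ± 1.0 CPM in early control, and to 5.87 ± 0.36 CPM in late Fra2, against 3.57 ± 0.56 CPM in late control (SD, n = 3 each). The fold changes were 0.65 ± 0.23 SE early and 0.71 ± 0.20 SE late (edgeR adjusted p = 0.0440 and 0.0149). Early control 2, at 1.45 CPM, set much of the early difference, which was 0.35 without it (edgeR adjusted p = 0.359), and DESeq2 did not call it (0.0675). The early call held in 4 of the 6 alternative fits with all libraries. Both calls were also lost without any of early Fra2 1, 2 and 3, or late control 1, late control 3, late Fra2 1 and late Fra2 3 (edgeR adjusted p between 0.0526 and 0.112). Late control was above early control at a peak 78.8 kb ahead of the gene (chr1:91722378-91722879), with 2.30 ± 0.151 CPM, against 0.901 ± 0.301 CPM in early control (1.25 ± 0.37 SE, edgeR adjusted p = 0.0422). That call was lost without early control 2 or 3 or any late control (edgeR adjusted p between 0.0778 and 0.0998), and when only the compared groups were fitted.

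Prrx1 had the largest rise among the calls of the 7 genes. A gene body peak 40.3 kb past the start (chr1:163273103-163273604) read 8.07, 8.47 and 7.64 CPM in early Fra2, against 3.00, 2.47 and 2.38 CPM in early control (log2 1.59 ± 0.20 SE, edgeR adjusted p = 3.52e-08). Late Fra2 read 7.88, 9.07 and 6.88 CPM, against 3.88, 5.07 and 2.99 CPM in late control (1.0 ± 0.18 SE, edgeR adjusted p = 0.000141). All 6 Fra2 libraries stood above all 6 controls, and both calls held in every alternative fit.

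Closer to the Prrx1 start, 2 neighbouring peaks rose at both times. The peak 14 kb past the start (chr1:163299383-163299884) read 5.17, 4.48 and 3.82 CPM in early Fra2, against 2.09, 2.18 and 1.96 CPM in early control (log2 1.11 ± 0.25 SE, edgeR adjusted p = 0.00131). It read 5.01, 5.60 and 4.85 CPM in late Fra2, against 2.84, 1.45 and 2.07 CPM in late control (1.30 ± 0.24 SE, edgeR adjusted p = 0.000188). These groups did not overlap, both calls held in every alternative fit, and the Ezh2 inhibitor mean of 1.96 ± 0.72 CPM (SD, n = 3) was no higher than early control. A peak 14.7 kb past the start (chr1:163298691-163299192) averaged 3.96 ± 0.12 CPM in early Fra2, against 2.17 ± 0.31 CPM in early control, and 3.17 ± 0.62 CPM in late Fra2, against 1.45 ± 0.40 CPM in late control (0.83 ± 0.26 and 1.11 ± 0.27 SE, edgeR adjusted p = 0.0223 and 0.00484). Its early call was lost without early Fra2 1 or early control 1 (edgeR adjusted p = 0.0740 and 0.0503) and its late call without late control 2 (0.0561).

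Outside the Prrx1 interval changes went both ways. The peak 20.7 kb past the 3′ end (chr1:163224180-163224681) rose to 2.54 ± 0.90 CPM in early Fra2, against 1.24 ± 0.41 CPM in early control, and to 3.07 ± 0.17 CPM in late Fra2, against 1.43 ± 0.75 CPM in late control (log2 1.12 ± 0.39 and 1.08 ± 0.35 SE, edgeR adjusted p = 0.0402 and 0.0388). The early groups overlapped. The early call was lost without early control 1 or 2 or early Fra2 1 or 3, and the late call without late control 1 or 3 or any late Fra2 library (edgeR adjusted p between 0.0803 and 0.194), and in DESeq2 (0.0676 and 0.0644). Each of these calls held in 4 of the 6 alternative fits with all libraries. A peak 23.9 kb ahead of the gene (chr1:163338753-163339254) rose in late Fra2, to 2.49 ± 0.34 CPM, against 1.15 ± 0.77 CPM in late control (1.09 ± 0.33 SE, edgeR adjusted p = 0.0264). That call was lost without late control 1, late control 3, late Fra2 2 or late Fra2 3 (edgeR adjusted p between 0.0741 and 0.230). At both peaks that fell in early Fra2, late control was also below early control. The peak 5.4 kb past the 3′ end (chr1:163239473-163239974) averaged 1.67 ± 0.46 CPM in early Fra2, 1.73 ± 0.20 CPM in late control and 3.40 ± 1.12 CPM in early control (log2 -1.11 ± 0.31 SE for early Fra2 and -1.03 ± 0.31 SE for late control, edgeR adjusted p = 0.0102 and 0.0481). The gene body peak 22.7 kb past the start (chr1:163290675-163291176) averaged 1.89 ± 0.54 CPM in early Fra2, 1.72 ± 0.26 CPM in late control and 3.64 ± 1.10 CPM in early control (-0.87 ± 0.30 and -1.03 ± 0.30 SE, edgeR adjusted p = 0.0362 and 0.0401). The same 3 early controls enter both differences. The early Fra2 calls were lost without early control 1 or 2 or early Fra2 1 at the first peak and without early control 3 or early Fra2 1 or 2 at the second (edgeR adjusted p between 0.0617 and 0.150). The late control calls were lost without any library but early control 3 at the first peak and any but early control 1 at the second (edgeR adjusted p between 0.0514 and 0.184). Both late control calls were also lost under gene-end scaling and when only the compared groups were fitted. Of the 6 alternative fits with all libraries, the late control call held in 3 at the first peak and 4 at the second. The early Fra2 call held in 6 at the first and 4 at the second. The strongest Prrx1 peak, in the gene body 60.6 kb past the start, read 15.8, 15.3 and 15.6 CPM in early Fra2, against 14.7, 10.8 and 8.54 CPM in early control (0.41 ± 0.16 SE, edgeR adjusted p = 0.0769), and the peak nearest the start, at 0.4 kb, averaged 3.49 ± 0.860 CPM and 4.28 ± 0.801 CPM there, also without a call.

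**Figure D3:**
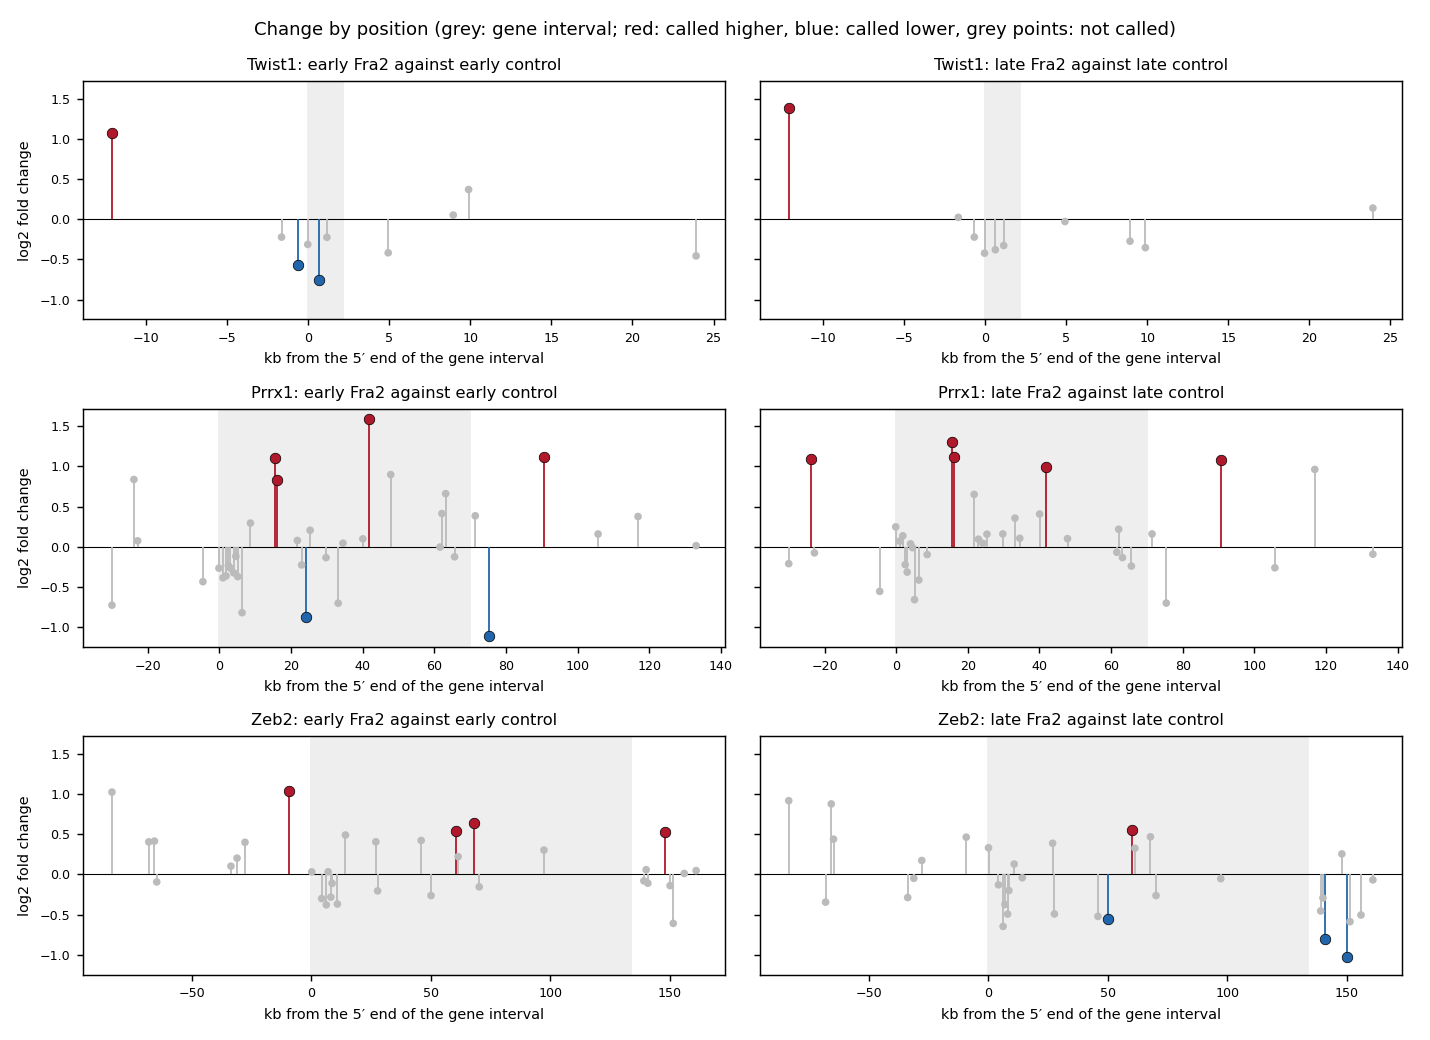
Log2 fold change of each peak of Twist1, Prrx1 and Zeb2 by its distance in kb from the 5′ end of the gene interval (shaded), for early Fra2 and late Fra2 against their controls. The Twist1 rise 12.1 kb ahead of the gene and 4 Prrx1 rises are called at both times, as is 1 Zeb2 gene body rise, and 3 Zeb2 falls are called in late Fra2.

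Zeb2, a zinc finger homeobox repressor, had 4 peaks that rose in early Fra2, and 1 that rose and 3 that fell in late Fra2. The peak 9.2 kb ahead of the first start (chr2:45126343-45126844) read 4.70, 4.56 and 3.03 CPM in early Fra2, against 1.45, 2.68 and 1.96 CPM in early control (log2 1.04 ± 0.26 SE, edgeR adjusted p = 0.00305). The peaks 53.2 kb (chr2:45056808-45057309) and 60.8 kb past the nearest start, both in the gene body, rose by 0.53 ± 0.17 and 0.65 ± 0.18 SE in early Fra2 (edgeR adjusted p = 0.0237 and 0.0101). The first of them also rose in late Fra2, to 7.21 ± 0.61 CPM, against 4.92 ± 0.66 CPM in late control (SD, n = 3 each; 0.56 ± 0.16 SE, edgeR adjusted p = 0.0210). On the 3′ side, the peak 14.1 kb past the gene rose by 0.53 ± 0.17 SE in early Fra2 (edgeR adjusted p = 0.0272), with overlapping groups, 15.8 ± 2.9 CPM in early Fra2 and 10.5 ± 3.7 CPM in early control (SD, n = 3 each). Without early control 3, at 6.44 CPM, it was 0.33 (adjusted p = 0.0941).

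The call 9.2 kb ahead of the start was lost without early control 1 (edgeR adjusted p = 0.0580), and that at 60.8 kb without early control 2 or early Fra2 1 (0.0876 and 0.0625). At 53.2 kb the early call was lost without early Fra2 1 (0.0954) and the late call without late control 2, late Fra2 1 or late Fra2 2 (between 0.0679 and 0.139). The call 14.1 kb past the 3′ end was also lost without early control 2, early Fra2 1 or early Fra2 2 (between 0.0570 and 0.208). The early calls at 53.2 kb and 14.1 kb each held in 5 of the 6 alternative fits with all libraries, and the other Zeb2 rises in all 6.

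The late falls at Zeb2 were at other peaks. The peak 6.9 kb past the 3′ end (chr2:44976378-44976879) read 8.18, 6.35 and 7.06 CPM in late Fra2, against 10.6, 12.5 and 14.7 CPM in late control (log2 -0.81 ± 0.17 SE, edgeR adjusted p = 0.000884). The groups did not overlap, and the call held in every alternative fit. In early cells the means were 9.38 ± 1.14 CPM in early Fra2 and 9.78 ± 3.14 CPM in early control (SD, n = 3 each), and the test of the difference between the times gave -0.70 ± 0.24 SE (edgeR adjusted p = 0.276). The peak 16.2 kb past the 3′ end (chr2:44967071-44967572) fell to 1.33 ± 0.20 CPM in late Fra2, against 2.77 ± 0.90 CPM in late control (-1.03 ± 0.35 SE, edgeR adjusted p = 0.0485). A gene body peak 42.9 kb past the nearest start fell to 5.32 ± 0.84 CPM, against 7.85 ± 0.52 CPM (-0.55 ± 0.18 SE, edgeR adjusted p = 0.0437). Both of these calls were lost under gene-end scaling (adjusted p = 0.125 and 0.212) and with 1 library less, any but late control 2 at the first and any of the 6 at the second (edgeR adjusted p between 0.0632 and 0.186). DESeq2 did not call the second.

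Zeb1, which shares its E-box target with Zeb2 and the Snail proteins, rose at 4 peaks and fell at 2 in early Fra2. Its strand is not in the table used, so distances are from the gene interval. The largest rise was 5.9 kb outside the lower-coordinate end, with 3.37, 3.44 and 4.47 CPM in early Fra2, against 1.34, 2.03 and 1.68 CPM in early control (log2 1.17 ± 0.30 SE, edgeR adjusted p = 0.00405). The strongest was in the gene body, with 17.6, 19.5 and 16.1 CPM in early Fra2, against 11.8, 11.8 and 9.66 CPM in early control (0.66 ± 0.15 SE, edgeR adjusted p = 0.00192). Neither pair of groups overlapped, and both calls held in every alternative fit. At the gene body peak late control, with 17.4, 18.6 and 17.9 CPM, stood above the same early controls (0.68 ± 0.15 SE, edgeR adjusted p = 0.00664), a call lost when only the compared groups were fitted (adjusted p = 0.119). Late Fra2 read 18.1, 18.5 and 16.3 CPM there and overlapped late control. The late minus early difference of the Fra2 effects was -0.68 ± 0.21 SE (edgeR adjusted p = 0.204), and DESeq2 called it in that comparison, in which it gave no adjusted p for 135 of the 197 member peaks.

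The other Zeb1 rises in early Fra2 were 71.0 and 68.6 kb outside the lower-coordinate end, with 5.64 ± 0.771 CPM in early Fra2 and 3.22 ± 1.34 CPM in early control at the first, and 4.11 ± 0.0638 CPM and 2.58 ± 0.288 CPM at the second (SD, n = 3 each; log2 0.72 ± 0.22 and 0.70 ± 0.22 SE, edgeR adjusted p = 0.0185 and 0.0240). The falls were 31.2 kb beyond the higher-coordinate end, with 2.02 ± 0.143 CPM in early Fra2 and 3.73 ± 0.436 CPM in early control, and in the gene body, with 1.74 ± 0.290 CPM and 3.11 ± 0.367 CPM (-0.86 ± 0.27 and -0.82 ± 0.28 SE, edgeR adjusted p = 0.0202 and 0.0388). None of these 4 calls held when only the compared groups were fitted (adjusted p between 0.0544 and 0.110). Both falls held in 4 of the 6 alternative fits with all libraries, and both rises in 5. With 1 library less, the rises were lost without early Fra2 1 or 2, and without early control 3 at the first and early control 1 at the second. The falls were lost without early Fra2 1 or 3 at the first, and early Fra2 1 or 2 or early control 1 or 3 at the second (edgeR adjusted p between 0.0517 and 0.124 over the 4 calls).

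In late Fra2 other Zeb1 peaks rose. One 59.8 kb beyond the higher-coordinate end read 4.49, 4.69 and 4.42 CPM in late Fra2, against 2.54, 2.47 and 2.74 CPM in late control (log2 0.81 ± 0.21 SE, edgeR adjusted p = 0.00722), without overlap, and the call held in every alternative fit. In early cells its log2 value was 0.13 ± 0.21 SE, and the difference between the times did not pass the test (0.68 ± 0.29 SE, edgeR adjusted p = 0.427). A gene body peak read 4.75, 3.04 and 4.42 CPM in late Fra2, against 2.02, 2.11 and 2.07 CPM in late control (0.98 ± 0.25 SE, edgeR adjusted p = 0.00761), a call lost without late Fra2 1 (0.0700). Late control exceeded early control at another gene body peak, with 2.82 ± 0.261 CPM, against 1.39 ± 0.504 CPM (1.11 ± 0.32 SE, edgeR adjusted p = 0.0395), and that call was lost without early control 1 or 2 or any late control (edgeR adjusted p between 0.0691 and 0.166). It was also lost when only the compared groups were fitted. Of the 3 peaks at Zeb1 gene ends none was called, and their means over the 15 libraries ran between 1.24 and 2.81 CPM.

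Snai1, the gene of the Snail repressor, was called at 2 neighbouring peaks past its 3′ end. The peak 18.4 kb past the end (chr2:167561005-167561506) read 5.14, 4.09 and 4.12 CPM in Ezh2 inhibitor cells, against 2.47, 1.60 and 1.54 CPM in early control (log2 1.18 ± 0.23 SE, edgeR adjusted p = 0.00712). Late control, with 3.44, 3.38 and 3.53 CPM, was also above early control (0.82 ± 0.25 SE, edgeR adjusted p = 0.0484). Early control was thus the lowest of the 5 groups at this peak, with early Fra2 at 3.05 ± 0.24 CPM and late Fra2 at 3.02 ± 0.42 CPM (SD, n = 3 each). The inhibitor call was lost without early control 2 or Ezh2 inhibitor 1 (edgeR adjusted p = 0.0607 and 0.0617) and when only the compared groups were fitted (0.0868), and the late control call when any of 5 single libraries was left out (edgeR adjusted p between 0.0848 and 0.194). The late control call was also lost in DESeq2 and when only the compared groups were fitted. The peak 19.6 kb past the end (chr2:167562123-167562624) fell in early Fra2, with 1.57, 2.48 and 2.38 CPM, against 3.49, 4.57 and 4.20 CPM in early control (-0.95 ± 0.26 SE, edgeR adjusted p = 0.00832). That call was lost without early control 2 or early Fra2 1 (edgeR adjusted p = 0.0570 and 0.0915).

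Snai2, known for its role in neural crest and fibroblast cells, had none of its 6 peaks called in any comparison by edgeR or DESeq2. DESeq2 gave no adjusted p for 1 of the 6 with the inhibitor and for 2 in the difference of the Fra2 effects. By edgeR, 1 peak had an unadjusted p under 0.05 in early Fra2 against early control and 1 in late against early control. Its strongest peak, at a gene end (chr16:14705574-14706075), read 16.4, 16.1 and 12.7 CPM in early Fra2, against 19.3, 17.9 and 15.3 CPM in early control (log2 -0.22 ± 0.15 SE, edgeR adjusted p = 0.330). Late Fra2 read 13.5, 14.2 and 14.1 CPM there, against 14.6, 15.3 and 15.9 CPM in late control (-0.14 ± 0.15 SE, edgeR adjusted p = 0.599). The late groups did not overlap, but the difference was smaller than its standard error.

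Counts summed over all peaks of a gene gave smaller differences than single peaks. Prrx1 summed to 153, 154 and 155 CPM in late Fra2, against 152, 125 and 126 CPM in late control, and rose by 0.20 ± 0.05 SE on the log2 scale (edgeR adjusted p = 0.00912 over 18314 genes). Zeb1 summed to 239, 243 and 239 CPM in late Fra2, against 236, 199 and 221 CPM in late control (0.14 ± 0.05 SE, edgeR adjusted p = 0.0374). The groups did not overlap in either, which held, with late Fra2 higher, for 22.1% of all genes, and late control 1 came close to late Fra2 in both. Without late control 2 both calls were lost, at 0.15 (adjusted p = 0.0889) for Prrx1 and 0.07 (adjusted p = 0.329) for Zeb1, and without late control 3 neither was called. Without late Fra2 1, 2 or 3, or Ezh2 inhibitor 2 or 3, whose spread enters the fit, 1 gene was called. Over all genes, 24.0% were called in late Fra2, so 2 of 7 is near the background.

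In early Fra2 none of the 7 summed values was called by edgeR, where 26.5% of genes were. Of the 7, 3 had an unadjusted p under 0.05 and DESeq2 called 1, Zeb1. The share of all genes at an unadjusted p under 0.05 was not counted in any comparison. Zeb1 summed to 232, 244 and 236 CPM in early Fra2, against 218, 213 and 222 CPM in early control (0.12 ± 0.05 SE, edgeR adjusted p = 0.0630). Zeb2 summed to 196, 185 and 181 CPM, against 180, 181 and 134 CPM (0.16 ± 0.07 SE, edgeR adjusted p = 0.0927), and the low value was early control 3. Without that library 2 of the 7 genes were called, 1 in each direction, and 33.2% of all genes. Twist1 summed to 51.0, 48.9 and 54.9 CPM, against 57.4, 59.8 and 55.5 CPM (-0.16 ± 0.07 SE, edgeR adjusted p = 0.0856). With its 8 peaks within 10 kb, which leave out the rise 12.1 kb ahead, Twist1 fell by 0.25 in early Fra2 and by 0.21 in late Fra2 (edgeR adjusted p = 0.0127 and 0.0319). The share of all genes called with that assignment was not counted. With all 10 peaks the late Twist1 value was -0.04 ± 0.07 SE (edgeR adjusted p = 0.742). Prrx1 summed to 153 ± 1.3 CPM in early Fra2 and 141 ± 1.4 CPM in early control (0.11 ± 0.06 SE, edgeR adjusted p = 0.131). For Snai1, Snai2 and Twist2 both Fra2 comparisons gave values between -0.04 and 0.07, with SEs of at most 0.09.

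No member gene was called by its summed counts in Ezh2 inhibitor cells against early control (edgeR, none at an unadjusted p under 0.05, none in DESeq2), where 5.02% of genes were. The values ran between -0.10 ± 0.05 SE for Snai1 and 0.12 ± 0.07 SE for Zeb2. In late against early control none was called by edgeR or DESeq2, where 4.65% of genes were, and 2 had an unadjusted p under 0.05, Twist1 at -0.22 ± 0.07 SE and Zeb2 at 0.18 ± 0.07 SE (edgeR adjusted p = 0.0722 and 0.143). Per kb of peak the summed level averaged 14 CPM for Snai1, 13 for Snai2, 10.9 for Zeb2, 10.4 for Twist1, 9.55 for Twist2, 9.45 for Zeb1 and 7.93 for Prrx1.

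**Figure D4:**
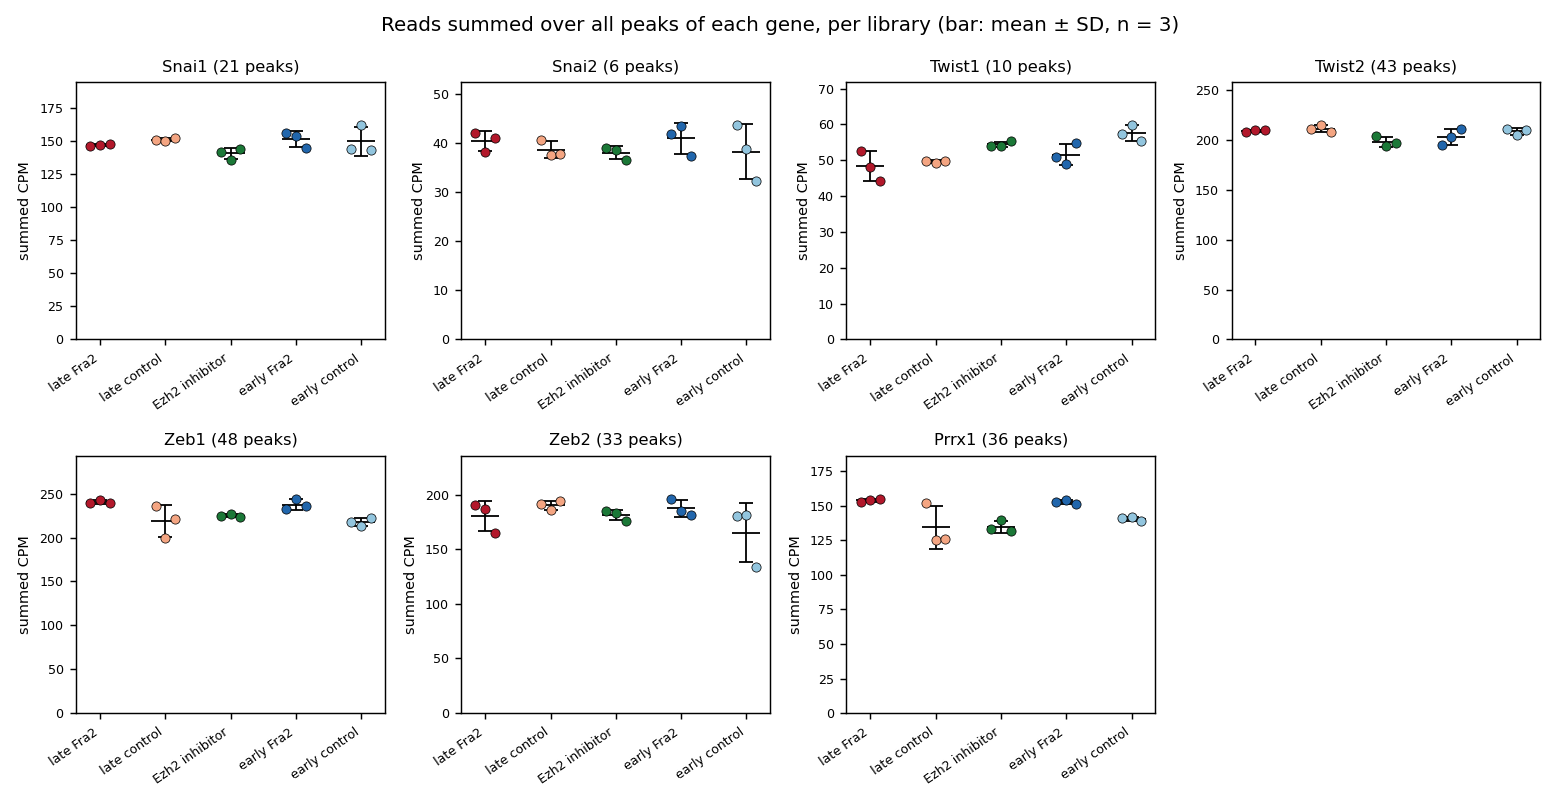
CPM summed over all peaks of each gene in each of the 15 libraries (points), with the group mean ± SD (bars, n = 3). Both early and late Fra2 lie above their controls for Zeb1 and Prrx1, and early control 3 is low for Zeb2. Most other groups overlap their controls, and Twist1 in early Fra2 and Snai1 in late Fra2 are among those lying below them.

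Over the 197 peaks, the early and late Fra2 effects, which share no library, had a correlation of r = 0.58, about that of all 206349 peaks (r = 0.585). Both values are across peaks, which share libraries and depth. Of the 16 peaks that rose early, 7 were also called higher late and 15 had a late log2 value above 0. Those 7 were the Twist1 peak 12.1 kb ahead of the start, the Twist2 peak in the gene body, 1 Zeb2 gene body peak and 4 Prrx1 peaks. Of the 9 that fell early, 7 had a late value below 0 and none was called late, and no peak was called in opposite directions. How often this held over all peaks was not counted, so these counts are no result about the 7 genes. The test of the difference between the effects called none of the 197 peaks in edgeR, where 0.0935% of all peaks were called. An unadjusted p under 0.05 was found at 19 of the 197, and the share of all peaks at that threshold was not counted. DESeq2 called 1 and left 135 without an adjusted p.

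**Figure D5:**
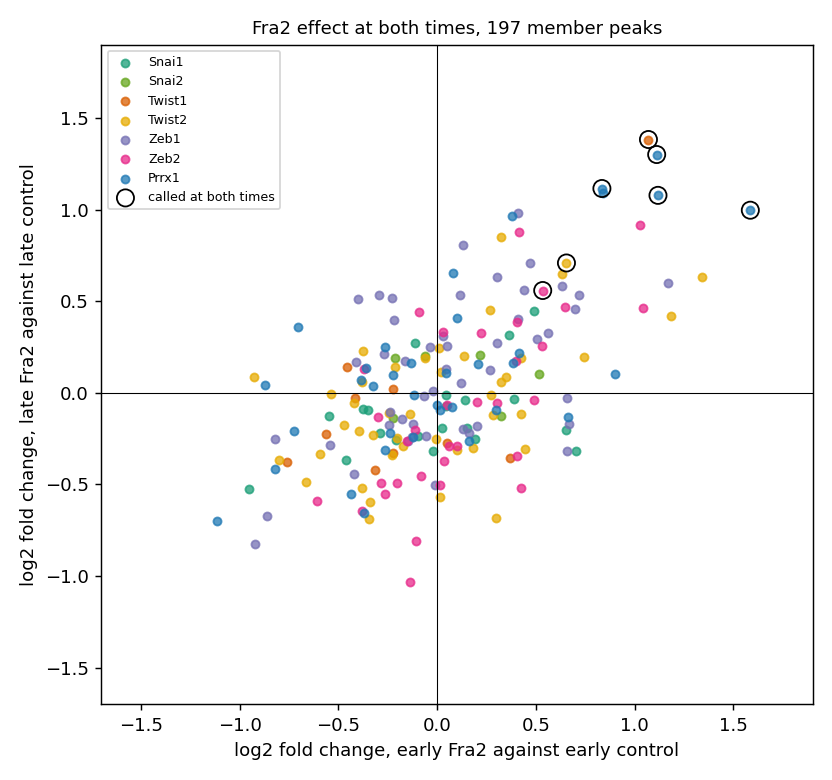
Log2 fold change in late Fra2 against late control (y axis) and in early Fra2 against early control (x axis) for each of the 197 member peaks, coloured by gene. The 7 circled peaks, of Twist1, Twist2, Zeb2 and Prrx1, were called higher at both times.

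Partners and targets of these factors were read from 5 lists of 94 genes in all, drawn up with earlier results of these data known. Their peaks were counted by the same nearest gene rule, and the shares of all peaks are those given above. E-protein partners and Id antagonists of bHLH factors such as Twist1 had 19 of 223 peaks higher and 28 lower in early Fra2, and 12 higher and 3 lower in late Fra2. The early shares were 8.52% higher and 12.6% lower, beside 10.1% and 4.92% of all peaks, and the 2 largest falls were in the body of Tcf12, an E-protein gene (log2 -1.31 ± 0.34 and -1.20 ± 0.33 SE, edgeR adjusted p = 0.00533 and 0.00962). Another Tcf12 gene body peak rose in late Fra2 (log2 1.09 ± 0.31 SE, edgeR adjusted p = 0.0179). Tcf4, another E-protein gene, had a gene body peak at 4.86 ± 0.28 CPM in early Fra2, against 1.94 ± 0.84 CPM in early control, and at 5.44 ± 0.64 CPM in late Fra2, against 2.57 ± 0.67 CPM in late control (1.39 ± 0.26 and 1.10 ± 0.23 SE, edgeR adjusted p = 7.13e-05 and 0.00100). Other transcription factors of mesenchyme had 24 of 359 peaks higher and 16 lower early, and 20 and 8 late.

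Epithelial gatekeeper factors, which oppose the Zeb and Snail programs, had 25 of 184 peaks higher and 7 lower in early Fra2 (13.6% and 3.80%), and 15 and 9 in late Fra2. A peak 84.9 kb from Grhl2, a grainyhead factor of epithelia, averaged 6.21 ± 0.81 CPM in early Fra2, against 2.12 ± 0.52 CPM in early control (SD, n = 3 each; log2 1.58 ± 0.23 SE, edgeR adjusted p = 9.46e-07). In the same list a peak 13 kb from Grhl1, its paralog, fell by 1.17 and one 56.2 kb from Tfap2a by 1.21 in early Fra2 (edgeR adjusted p = 0.000924 and 0.0379), and a Grhl2 gene body peak fell by 1.19 in late Fra2 (edgeR adjusted p = 0.0401). Epithelial junction and keratin genes had 15 of 164 peaks higher and 8 lower early, and 12 and 5 late. The largest early rise was 2.5 kb outside Pkp1, a desmosome gene (log2 1.43 ± 0.19 SE, edgeR adjusted p = 1.72e-07), and the largest falls were gene body peaks of Pkp1 and of Jup, the plakoglobin gene (-0.999 ± 0.28 and -0.92 ± 0.21 SE, edgeR adjusted p = 0.00907 and 0.00111). A gene body peak of Cdh1, the E-cadherin gene that Snail, Zeb and Twist factors are known to repress, averaged 3.12 ± 0.27 CPM in early Fra2, against 1.10 ± 0.38 CPM in early control (1.38 ± 0.30 SE, edgeR adjusted p = 0.000810). Mesenchymal effector genes had 53 of 622 peaks higher and 17 lower early (8.52% and 2.73%), and 33 and 12 late. Cdh11, the cadherin of mesenchymal cells, had the largest rise, with 2.53 ± 0.19 CPM in early Fra2, against 0.836 ± 0.267 CPM in early control (1.68 ± 0.39 SE, edgeR adjusted p = 0.00171), and a peak 56 kb from Postn, the periostin gene, the largest fall (-1.39 ± 0.32 SE, edgeR adjusted p = 0.00139). Another Postn peak, 16.3 kb from the gene, rose in late Fra2 (log2 1.53 ± 0.39 SE, edgeR adjusted p = 0.00728). In Ezh2 inhibitor cells against early control, mesenchymal effectors had 10 higher and 7 lower, epithelial gatekeepers 2 higher, and the other 3 lists 4 lower in all.

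Across the 15 libraries, the summed level of each gene was set beside that of 11373 protein-coding genes with at least 5 peaks, and the 2 most alike by Pearson's r on the log2 scale were taken. For Snai1 these were Tmsb10 (r = 0.923) and Rin1 (0.862), and for Snai2 they were Fat1 (0.893) and Uap1 (0.886). Twist1 was most like Ifitm2 (0.848) and Ube2l6 (0.846), and Twist2 most like Lsm6 (0.887) and Usp32 (0.884). Zeb1 was most like Gorab (0.912) and Zmat4 (0.894), Zeb2 like Il2 (0.931) and Tac1 (0.928), and Prrx1 like Lin7a (0.914) and Auts2 (0.911). Each is the highest of 11373 values and a description only. Between members, Zeb1 and Prrx1 had the highest correlation (r = 0.818), which rests on libraries that share depth and group. Twist1 and Zeb1 had the lowest (r = -0.417).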

How the data were processed

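The authors deposited a table of read counts for 206367 consensus peaks in 15 Omni-ATAC-seq libraries (all but 1 peak 502 bp wide) and 1 peak list per library. Per the submitters' processing notes the lists came from MACS2 in mm10. The sources used here do not name an aligner, counter, read shift or version, so how the counts treat duplicates and insertion offsets is unknown. The deposited narrowPeak lists give each peak's fold enrichment over local background, a ratio, and the −log10 of its p-value and q-value, and served only to ask in how many libraries a peak had a summit.

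Peaks were assigned to the nearest of 21900 protein-coding gene intervals within 100 kb (RefSeq, GRCm38.p6). After edgeR's filterByExpr removed 18 peaks, counts were TMM scaled and tested with edgeR's quasi-likelihood test (edgeR 4.0.16, limma 3.58.1, R 4.3.3), all 5 groups in 1 fit, with Benjamini-Hochberg adjustment over 206349 peaks or, for counts summed per gene, 18314 genes. A call is an adjusted p under 0.05. The scripts were tested on simulated data, where a check on the share of changed peaks recovered failed and was loosened after that was seen. There most peaks changed by a log2 of 1 were not called, whereas most such genes were. Far fewer peaks were changed there than were called in early Fra2, which makes the adjustment stricter than in these data. The simulated share therefore does not measure how many changes were missed here. A peak without a call is still not shown to be unchanged. Alternatives were DESeq2 1.42.0, no low-count filter, gene-end scaling, cyclic loess, fits of the compared groups only, a replicate block, assignment within 10 kb, and leaving out each library. Reads in peaks per library set the precision, from 6.75 to 25.3 M.

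Named peaks are, for each gene, the strongest, the one nearest a start (or gene end where strand is not given), and the largest called rise and fall in each comparison. Genes and lists were chosen with earlier results of these data known. All 15 count columns were mapped to samples by their names.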

Additional observations from a re-analysis of the deposited data

How the results depend on the processing

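Of the 46 called results at member peaks, each kept its direction in every fit. DESeq2 kept 41, cyclic loess and the replicate block 45 each, gene-end scaling 37, fits of the compared groups only 27, and no low-count filter all 46. Fits of the compared groups alone called 14 member peaks in early Fra2, 23 in late Fra2, 0 with the inhibitor and 0 in late against early control, against 25, 13, 2 and 6. Gene-end scaling called 38, 33 and 5 peaks in early Fra2, late Fra2 and inhibitor cells, and 6, 4, 1 and 1 of the 7 genes by summed counts in these and in late against early control, where 37.7%, 39.4%, 17.9% and 8.14% of all genes were called. Under it the summed Twist2 value turned positive, at 0.13 early (adjusted p = 0.0331) and 0.14 late (adjusted p = 0.0192), relative to a gene median that moved to 0.145 and 0.159. With peaks within 10 kb, 14, 8 and 0 peaks and, early, 1 gene were called, and late Zeb1 lost its call (0.18, adjusted p = 0.069) while Twist1 was called lower. Cyclic loess called 21 late Fra2 peaks and 5 with the inhibitor, where 11.2% and 2.6% of all peaks were called. Counting every peak within 100 kb, a choice made after seeing the data, gave 21 late Fra2 and 11 late against early control. DESeq2 called 1 peak for the difference of the effects and 1 gene early, where 0.177% of all peaks and 27.4% of all genes were called. Shares over all features were not counted for the compared groups only, both other assignments or the replicate block. Nor were they counted when a library other than early control 3 was left out. Member counts without such a share are no result about the 7 genes.

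Same-numbered libraries did not deviate together throughout (r between -0.00747 and 0.313 early, and between -0.0933 and 0.00159 late). In early cells the pairs numbered 1 and 3 had r = 0.313 and 0.244, above every pair of different numbers (between -0.295 and 0.0994). In late cells pairs of different numbers had r between -0.0548 and 0.077. Whether early libraries of the same number share a batch or culture was not tested, and the main fit does not model it. With the replicate block 16 peaks rose and 9 fell early, 10 and 4 late, 2 and 0 with the inhibitor, 5 and 1 in late against early control, and 1 gene was called early, Zeb2 (0.17, adjusted p = 0.0445). With 1 library less, peak calls ran from 13 to 28 early, 7 to 26 late, 0 to 7 with the inhibitor, 1 to 9 in late against early control and 0 to 0 for the difference. Gene calls ran from 0 to 2 early, 0 to 2 late, 0 to 0 with the inhibitor, 0 to 1 in late against early control and 0 to 0 for the difference. With list peaks of a −log10 q of at least 5 only, 17 member peaks, against 44, had a summit in all 15 lists. Where calls changed, the cause was not tested.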
